A study of Homo sapiens with 4 samples.

Results

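The genes described here encode the proteins of the cytoplasmic ribosome. They were taken by symbol: every RPL, RPS, RPLP or RPSA gene of the large (60S) or small (40S) subunit, with the named paralogs included and with ribosomal S6 kinases and pseudogenes left out. This rule uses no measured value, and it found 83 of the 35979 gene symbols in the data, 51 of the large and 32 of the small subunit. Of these, 77 are the canonical proteins found in most ribosomes and 6 are paralogs, second genes for proteins that already have a canonical one (RPL3L, RPL10L, RPL22L1, RPL26L1, RPL39L and RPS27L). All 77 canonical genes and 4 of the 6 paralogs passed the minimum used throughout, a mean of at least 20 normalized counts over the 4 libraries, as did 14940 symbols in all. RPL3L and RPL10L fell below it.

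The ribosome translates messenger RNA into protein, and each of its proteins has to be made in step with the others, since unpaired subunit proteins are degraded. The messenger RNAs of these genes are among the most abundant in dividing cells, and most begin with a C followed by a run of pyrimidines, the terminal oligopyrimidine (TOP) start, through which their translation is controlled together by the mTOR pathway. Paralogs can take the place of the canonical protein in some ribosomes and often vary more between tissues.

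NCI-H1048 cells, a cultured line from a human small cell carcinoma of the lung, were used, and poly(A) RNA was sequenced from 4 libraries. In 1 library the guide RNA (gRNA) targeted POU2F3, the transcription factor of the tuft-cell-like form of this cancer, and its genotype is given as a POU2F3 knockout. In 2 libraries different guides targeted COLCA2, a coactivator that works with POU2F3 (genotype COLCA2 knockout), and the fourth received a non-targeting guide (genotype WT). No treatment is given for any of them, nothing says whether edited cells were clones or pools, and every library carries a guide, the control included. The COLCA2 guides are thus the only pair, and their spread combines the guide, the library and any difference of culture, since nothing says whether they were separate cultures; the other groups have 1 library each and no replicate check.

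The deposited normalized counts were whole reads divided by 1 factor per library, and the recovered depths ran from 21587741 to 29632382 reads. POU2F3 stood at 14602 normalized counts in the non-targeting library, 1449 with its own guide, and 3677 and 2351 with COLCA2 guides 1 and 2. COLCA2 stood at 5585 in the non-targeting library, 3119 and 3541 with its own guides, and 1393 with the POU2F3 guide, so its RNA was lower in all 3 targeted libraries. The summed level of 12 tuft-cell markers, POU2F3 among them, was 49201 normalized counts in the non-targeting library and 11577 to 16997 in the targeted ones, with HPGDS at 0 in the non-targeting library, so the labelled line carried most of its tuft markers (8 of 12 past the minimum). Neuroendocrine markers (8 genes) summed to 233 without a targeting guide and to 123.4 to 140 with one, and CHGA and GRP were at 0 in the non-targeting library. Leukocyte markers (8 genes) summed to 220.6 in the non-targeting and 293.8 to 324.5 in the targeted libraries, and fibroblast and endothelial markers (9 genes) to 1333 and 1633 to 2117; CD3E, ITGAM and CDH5 were at 0 in the non-targeting library. Any part of these marker levels in the results below was not tested.

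Sequence around the start site shows what most of the set shares and where some paralogs and some canonical genes depart from it. In the RefSeq promoter table (build GRCh38.p14), 66 of the 83 genes had an entry and 17 had none, RPL39L and RPS2 among the latter. The windows below run 5′ to 3′ over 30 bases, 15 before the start and 15 from the start on, so that the start base is the 16th letter. Capitals mark the longest run of C and T that reaches within 5 bases of the start. They are shown for genes whose levels are described below: the stalk gene RPLP1, RPS13 and RPL35 among canonical genes with the largest differences, and 3 paralogs each beside its canonical partner.
RPLP1 (chr15:69452803-69452832, plus strand): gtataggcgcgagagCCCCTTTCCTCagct
RPS13 (chr11:17077653-17077682, minus strand): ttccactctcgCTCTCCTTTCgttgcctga
RPL35 (chr9:124861943-124861972, minus strand): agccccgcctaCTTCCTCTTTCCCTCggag
RPL22 (chr1:6199581-6199610, minus strand): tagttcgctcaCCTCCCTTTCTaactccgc
RPL22L1 (chr3:170870181-170870210, minus strand): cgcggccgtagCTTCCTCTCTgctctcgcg
RPL26 (chr17:8383179-8383208, minus strand): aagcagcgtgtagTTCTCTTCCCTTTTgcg
RPL26L1 (chr5:172958714-172958743, plus strand): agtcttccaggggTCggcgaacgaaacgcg
RPS27 (chr1:153990747-153990776, plus strand): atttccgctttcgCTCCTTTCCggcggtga
RPS27L (chr15:63157463-63157492, minus strand): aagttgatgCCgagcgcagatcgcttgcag

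The canonical genes shown and RPL22L1 have pyrimidine runs of 9 to 15 bases, while RPL26L1 and RPS27L have runs of 2. Canonical genes not shown can have runs as short, such as RPL27, RPS15 and RPS29, each with a run of 2. Over the 66 genes with an entry, 47 (71.2%) began on a C, against 14.7% of the 35116 promoters in the table. A C at the start followed by at least 4 pyrimidines was found in 43 of 66 (65.2%), against 4.07% of all promoters, and allowing it within 5 bases of the start gave 51 of 66 (77.3%), against 21.1%. RPL22L1 was the only paralog among the 4 with an entry to hold this start. Of the 62 canonical genes with an entry, 42 held it at the start base and 50 within 5 bases. Other motifs were searched on both strands of the promoter windows, from 250 bases before to 50 after the start. The ETS motif ACTTCCGG was in 10 of 66 (15.2%, against 4.14% of all promoters) and the YY1 motif AAGATGGC in 7 of 66 (10.6%, against 2.89%). The octamer ATGCAAAT, the motif that POU-family factors bind, was in 1 of 66, RPS23 (1.52%, against 1.77%). The E-box CACGTG was in 3 of 66 (4.55%, against 7.26%) and the TATA box letters TATAAA in 7 of 66 (10.6%, against 11.5%). No motif contains another, but the CTTCC letters of the ETS motif can lie within a pyrimidine run, and a match is a match of letters only.

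The set took a like share of every library. Ribosomal protein genes held 5.714% of all reads in the non-targeting library (exact Clopper-Pearson 95% interval 5.705 to 5.723%) and 5.483% with the POU2F3 guide (5.475 to 5.491%). With COLCA2 guide 1 they held 5.784% (5.775 to 5.794%) and with guide 2 5.597% (5.588 to 5.607%). The mean with COLCA2 guides was 5.69% ± 0.132 (SD, n = 2), which left the non-targeting library within their spread. The POU2F3 library lay 0.231 percentage points below the non-targeting one, at 96.0% of its share, and below both COLCA2 libraries. Intervals and counting errors here cover counting error only. In RNA from a whole culture, fewer cells of a type and less RNA per cell cannot be told apart, and shares and normalized counts are relative to the other transcripts of the library. The large subunit held 3.48, 3.35, 3.52 and 3.41% and the small subunit 2.23, 2.14, 2.26 and 2.19% of reads in the non-targeting, POU2F3, COLCA2 guide 1 and COLCA2 guide 2 libraries, so both subunits followed the order of the whole set. Genes of the mitochondrial genome took 3.97, 4.16, 4.47 and 4.08% of reads in the same order of libraries.

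Levels within the set covered a wide range. In the non-targeting library the canonical genes ran from 5478 normalized counts (RPL36A) to 46646 (RPL13A), with a median of 15827. Levels can be compared between genes only per length, and per kilobase of the median protein-coding transcript (GENCODE 29) the 75 canonical genes with a length ran from 4932 (RPS28) to 65628 (RPL41) normalized counts in that library, 13.3-fold, with a median of 23075. RPL41, which encodes the shortest ribosomal protein, was followed by RPLP0, the scaffold of the ribosomal stalk, at 52935 per kilobase, RPL8, near the peptidyl transferase centre, at 48381; RPS18, at 44918, was also among the 5 highest. The 4 expressed paralogs were the lowest, below RPS28: RPS27L at 1916, RPL26L1 at 1215, RPL22L1 at 839.3 and RPL39L at 520.2 per kilobase. The order depended on which transcript length was used: with the principal transcript RPLP0 stood at 33341 and RPS27L at 240.6 per kilobase, while RPL41 was at 54831. The order itself differed little between libraries. Spearman's rho of normalized counts across the 77 canonical genes was 0.986 to 0.996 over the pairs of libraries, beside 0.722 to 0.979 across 806 other genes with a mean of at least 5000. These are descriptions across genes, which share gene length, library and depth and are not independent replicates.

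No canonical ribosomal protein gene differed by 1.2-fold from the non-targeting library in any targeted library on the deposited scale; with equal totals per library RPL35 and RPS2 were lower by that much with the POU2F3 guide, as were 24.7% of all genes. Differences are log2 ratios of normalized counts with 1 added to each, and for COLCA2 a gene counted as called had to pass with both guides, each against the same non-targeting library, which the POU2F3 comparison also uses. With the POU2F3 guide the 77 log2 ratios ran from -0.26 (RPL35) to 0.19 (RPLP1), with a median of -0.024 and a standard deviation over genes of 0.083. The means of both COLCA2 guides ran from -0.14 (RPS2) to 0.22 (RPS27A), with a median of 0.057 and a standard deviation of 0.071. Between the COLCA2 guides themselves the ratios ran from -0.22 (RPL36A) to 0.16 (RPL35), with a standard deviation over genes of 0.062. All genes past the minimum had standard deviations of 0.75 with the POU2F3 guide and 0.77 with the COLCA2 guides, and 52.7% and 51.2% of them lay within 1.2-fold of the non-targeting library. Among the 806 other genes with a mean of at least 5000, a group chosen after the data were seen, the shares within 1.2-fold were 64.4% and 61.5%, and between the COLCA2 guides 97.2%. The canonical genes thus sat closer together than these 806 genes in the comparisons with the control. That group was set by a floor on the mean alone, was not matched in abundance to the canonical genes, and holds POU2F3 itself.

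**Figure D1:**
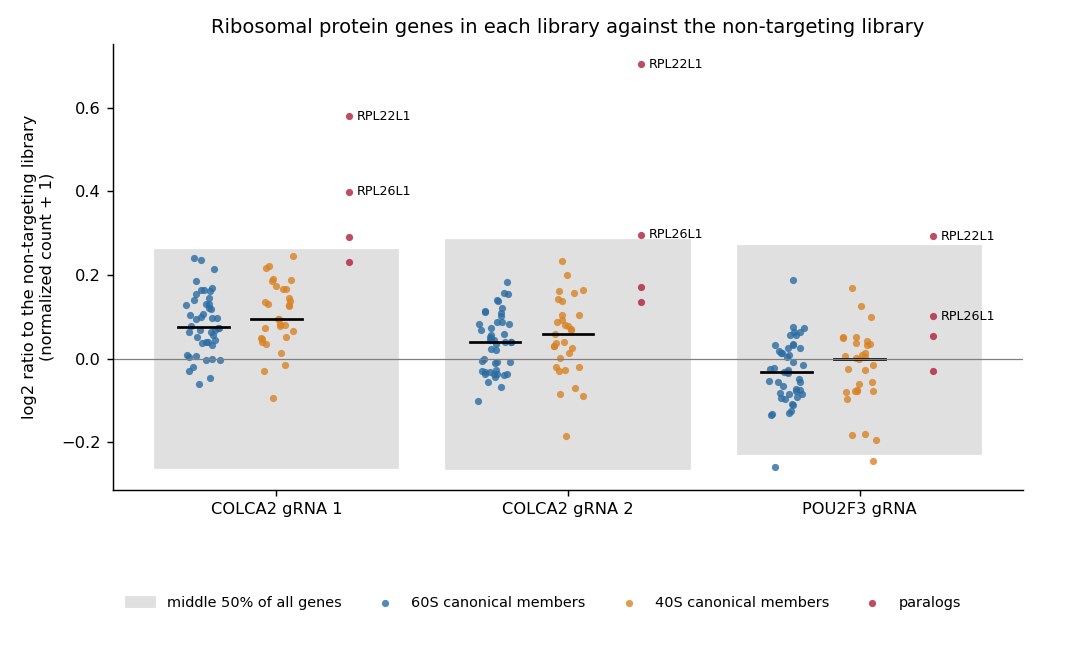
Log2 ratio of each ribosomal protein gene to the non-targeting library (vertical axis, no unit) in the 3 targeted libraries (horizontal axis). Points are single genes, black lines are medians of the 46 canonical 60S and 31 canonical 40S genes, and grey boxes span the middle 50% of all 14940 genes; RPL22L1 stands above the rest in every library.

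Counted over the 81 genes past the minimum, 1 gene was at least 1.2-fold higher with the POU2F3 guide (RPL22L1), beside 25.3% of all genes tested, and 0 were at least 1.2-fold lower, beside 22% of all genes. With both COLCA2 guides 2 genes were at least 1.2-fold higher (RPL22L1 and RPL26L1), beside 19.8% of all genes, and 0 were lower, beside 17.9%. Against the COLCA2 libraries, the POU2F3 library had 0 genes at least 1.2-fold higher, beside 9.2%, and 1 lower, RPL22L1, beside 8.82%. Against COLCA2 guide 1 alone 4 were lower (RPL22L1, RPL26L1, RPL35 and RPL39L), beside 16% of all genes. These shares of called genes among ribosomal protein genes were below the background in every comparison and direction.

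At 1.5-fold no ribosomal protein gene was called in any comparison. Of all genes, 12.2% were at least 1.5-fold higher and 7.69% lower with the POU2F3 guide, 9.71% higher and 6.03% lower with both COLCA2 guides, and 1.92% higher and 2.5% lower in the POU2F3 library against the COLCA2 libraries. At 2-fold none was called either. The background at 2-fold was 6.73% higher and 3.05% lower with the POU2F3 guide, 5.79% and 2.02% with COLCA2 guides, and 0.442% and 0.924% between the targeted groups.

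The count test gave 1 call. edgeR's quasi-likelihood test with Benjamini-Hochberg adjustment over all genes was run on the recovered reads. It takes its spread from the COLCA2 pair alone (1 residual degree of freedom). The POU2F3 and non-targeting groups hold 1 library each, and every comparison includes at least 1 of these groups. The test's values thus compare libraries, not conditions, in every comparison, that of the COLCA2 guides with the control included. With the COLCA2 guides, 1 ribosomal protein gene was higher at an adjusted p under 0.05 (RPL22L1) and 0 were lower, beside 11.4% of all genes higher and 7.51% lower. With the POU2F3 guide 0 were higher or lower, beside 8.45% higher and 3.98% lower of all genes. In the POU2F3 library against the COLCA2 libraries 0 were higher or lower, beside 0.107% and 0.234% of all genes. At an unadjusted p under 0.05, edgeR's test found 1 ribosomal protein gene lower with the POU2F3 guide (RPS2), 5 higher with the COLCA2 guides (RPL22L1, RPL26L1, RPLP1, RPS13 and RPS27A), and 2 lower in the POU2F3 library against the COLCA2 libraries (RPL22L1 and RPL35). Of all genes, 11% were lower and 15.7% higher with the POU2F3 guide at that p, 17.9% higher and 14.8% lower with the COLCA2 guides, and 6.75% lower and 6.89% higher between the targeted groups, so each count of ribosomal protein genes was below its background.

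**Figure D2:**
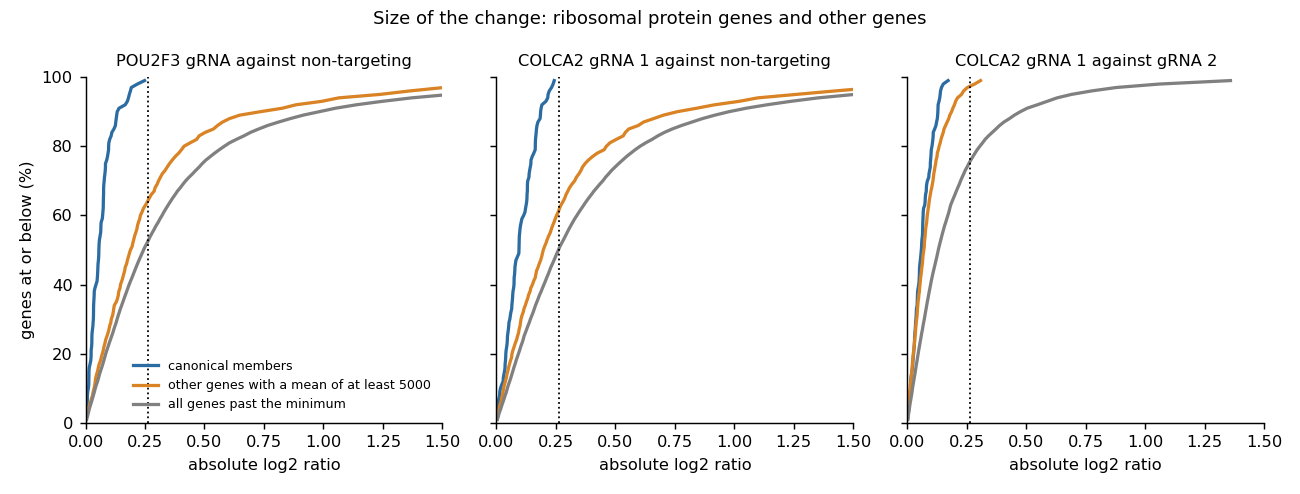
Percent of genes (vertical axis) whose absolute log2 ratio is at or below the value on the horizontal axis, for the 77 canonical ribosomal protein genes, 806 other genes with a mean of at least 5000 normalized counts, and all 14940 genes past the minimum; the dotted line marks 1.2-fold. All canonical genes lie left of the line in the 3 panels, while 52.7% of all genes do with the POU2F3 guide and 75.6% do between the COLCA2 guides.

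The median of the set lay a little off that of all genes, a shift that a change of scaling leaves the same by construction. On the deposited scale the median log2 ratio of the 81 genes was 0.096 with COLCA2 guide 1, 0.046 with guide 2 and -0.024 with the POU2F3 guide, and with equal totals per library it was 0.021, -0.018 and -0.058. Equal totals move every gene of a library alike, so the sign of the unadjusted median flipped in guide 2 and in the mean of both guides (0.062 as deposited, -0.0074 with equal totals). The median of all genes moved by at most 0.074 under equal totals, in COLCA2 guide 1. Relative to that median the ribosomal protein genes were at 0.10, 0.047 and -0.020 in COLCA2 guide 1, COLCA2 guide 2 and POU2F3 under either scaling. On the deposited scale 52 of 81 genes (64.2%) were above 0 with both COLCA2 guides, beside 41% of all genes. Equal totals gave 32 (39.5%), beside 34.1%. With the POU2F3 guide 45 of 81 (55.6%) were below 0, beside 50.4% of all genes, and with equal totals 61 (75.3%) were, beside 54.3%. The shares of 39.5% and 55.6% were near those of all genes.

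The POU2F3 library was lower than both COLCA2 libraries for most of the set. On the deposited scale 68 of the 81 genes were below both COLCA2 guides, beside 38.9% of all genes, and with equal totals 60 were, beside 33.5%. The median log2 difference was -0.10, and the canonical genes ran from -0.24 (RPL35) to 0.043 (RPL10). The COLCA2 guides differed from each other by a median of 0.055, and the median difference of the POU2F3 library was -0.13 against guide 1 and -0.074 against guide 2. Other short transcripts lay on the same side: 245 other genes with a principal transcript of at most 1000 nt and a mean of at least 1000, a group chosen after the data were seen, had a median difference of -0.17 between the POU2F3 and COLCA2 libraries, 0.088 with the COLCA2 guides and -0.080 with the POU2F3 guide against the control. The part of transcript length in the shift of the ribosomal protein genes was not tested.

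With the POU2F3 guide the median log2 ratio was -0.031 over the 46 canonical large-subunit genes and 0.00052 over the 31 of the small subunit. With the COLCA2 guides these medians were 0.048 and 0.080. Over all 81 genes the median of the small subunit was 0.035 above that of the large with the COLCA2 guides, and 0.020 or 0.015 above it with guide 1 or guide 2 left out. Between the POU2F3 and COLCA2 libraries they were -0.099 and -0.10. Genes with a TOP start (42 canonical genes) had medians of 0.059 with the COLCA2 guides and -0.026 with the POU2F3 guide, against 0.073 and 0.0087 for the 20 canonical genes with another start. The 15 canonical genes with no promoter entry had medians of 0.048 and -0.076.

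RPL22L1 rose with both COLCA2 guides and with the POU2F3 guide. It is the paralog of RPL22, a large-subunit protein that binds RNA and is known to restrain its paralog's messenger RNA, and it lies at chr3:170864875-170870483 on the minus strand (GRCh38, GENCODE 29). RPL22L1 stood at 457.4 normalized counts in the non-targeting library, 560.7 with the POU2F3 guide, and 684.3 and 745.6 with COLCA2 guides 1 and 2. All 3 targeted libraries were above the control, and both COLCA2 libraries were above the POU2F3 library. The log2 ratio was 0.64 ± 0.087 (SD, n = 2) with the COLCA2 guides, 1.56-fold, and 0.29 with the POU2F3 guide, 1.23-fold. By edgeR's quasi-likelihood test with Benjamini-Hochberg adjustment the log2 change with the COLCA2 guides was 0.64 (standard error 0.14, adjusted p = 0.0216) and with the POU2F3 guide 0.31 (standard error 0.16, adjusted p = 0.279). The difference between the POU2F3 and COLCA2 libraries, -0.34 by edgeR's test (standard error 0.14, adjusted p = 0.349), was not called. The non-targeting library held 479 reads of RPL22L1, and counting alone gives its POU2F3 log2 ratio a standard error of 0.086. With equal totals per library the POU2F3 ratio was 0.26, which is under 1.2-fold, and the COLCA2 ratios were 0.51 and 0.64.

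The partner RPL22 was within 1.2-fold of the control in all 3 targeted libraries. It was level with the control with COLCA2 guide 1 (log2 ratio -0.0031). With COLCA2 guide 2 (-0.068) and the POU2F3 guide (-0.13) it was lower. RPL22 stood at 10289 normalized counts in the non-targeting library, 9391 with the POU2F3 guide, and 10267 and 9819 with the COLCA2 guides. Per kilobase RPL22L1 was 5.65% of RPL22 in the non-targeting library, 7.59% in the POU2F3 library, and 8.47 and 9.66% in the COLCA2 libraries. By the principal transcript these shares were 4.218, 5.665, 6.324 and 7.205%. The log2 ratio of RPL22L1 to RPL22 was higher than in the control by 0.68 ± 0.13 (SD, n = 2) with the COLCA2 guides and by 0.42 with the POU2F3 guide, and a ratio within a library does not depend on the scaling factor. RPL22 shares sequence with pseudogenes that took 8.73% of the reads of the gene and its pseudogenes together. With those reads added, the log2 ratios of RPL22 were -0.025 and -0.051 with the COLCA2 guides and -0.13 with the POU2F3 guide.

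RPL26L1, the near-identical paralog of RPL26 (chr5:172958729-172969771, plus strand), rose past 1.2-fold with both COLCA2 guides. It stood at 834.6 normalized counts in the non-targeting library, 895.6 with the POU2F3 guide, and 1101 and 1026 with the COLCA2 guides. The log2 ratio was 0.35 ± 0.072 (SD, n = 2) with the COLCA2 guides and 0.10 with the POU2F3 guide. In edgeR's quasi-likelihood test the change with the COLCA2 guides missed the threshold after Benjamini-Hochberg adjustment (adjusted p = 0.0924), and with equal totals per library RPL26L1 was no longer past 1.2-fold with both guides. The partner RPL26 stood at 14724 in the non-targeting library, 14646 with the POU2F3 guide, and 16285 and 15803 with the COLCA2 guides, so it was above the control with both COLCA2 guides too. Against RPL26, the log2 ratio of RPL26L1 was higher by 0.22 ± 0.042 (SD, n = 2) with COLCA2 guides and by 0.11 with the POU2F3 guide. Reads of such near-identical pairs can be split between the genes in counting, so these levels are uncertain to that extent.

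The other paralogs were called in no comparison. RPS27L, the paralog of RPS27, stood at 1548 normalized counts in the non-targeting library, 1607 with the POU2F3 guide, and 1817 and 1744 with the COLCA2 guides. Its partner RPS27 stood at 14345, 16134, 16331 and 15991 in the same order. The paralog's share of its partner per kilobase was 4.79, 4.43, 4.95 and 4.85%. By the principal transcript that share was 0.602, 0.556, 0.621 and 0.609%, so its size rests on the length used. RPL39L, the paralog of the exit-tunnel protein RPL39 and best known from testis, stood at 389.6, 381.9, 476.9 and 428.1 in that order, and RPL39 at 6894, 7171, 6804 and 7249. RPL39L was past 1.2-fold with COLCA2 guide 1 (log2 ratio 0.29) and not with guide 2 (0.14). The log2 ratio of RPL39L to RPL39 was higher by 0.19 ± 0.17 (SD, n = 2) with the COLCA2 guides, a difference about the size of its spread. RPL3L, the striated-muscle paralog of RPL3, stood at 11.46, 15.11, 7.257 and 16.46 normalized counts, and RPL10L, the testis paralog of RPL10, at 0.9549, 0, 0 and 1.176, so neither was expressed at a level that could be compared. Paralogs together took 0.234% of the set's reads in the non-targeting library, 0.254% in the POU2F3 library, and 0.276 and 0.279% in the COLCA2 libraries. The paralogs' share was thus higher in each targeted library than in the control.

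**Figure D3:**
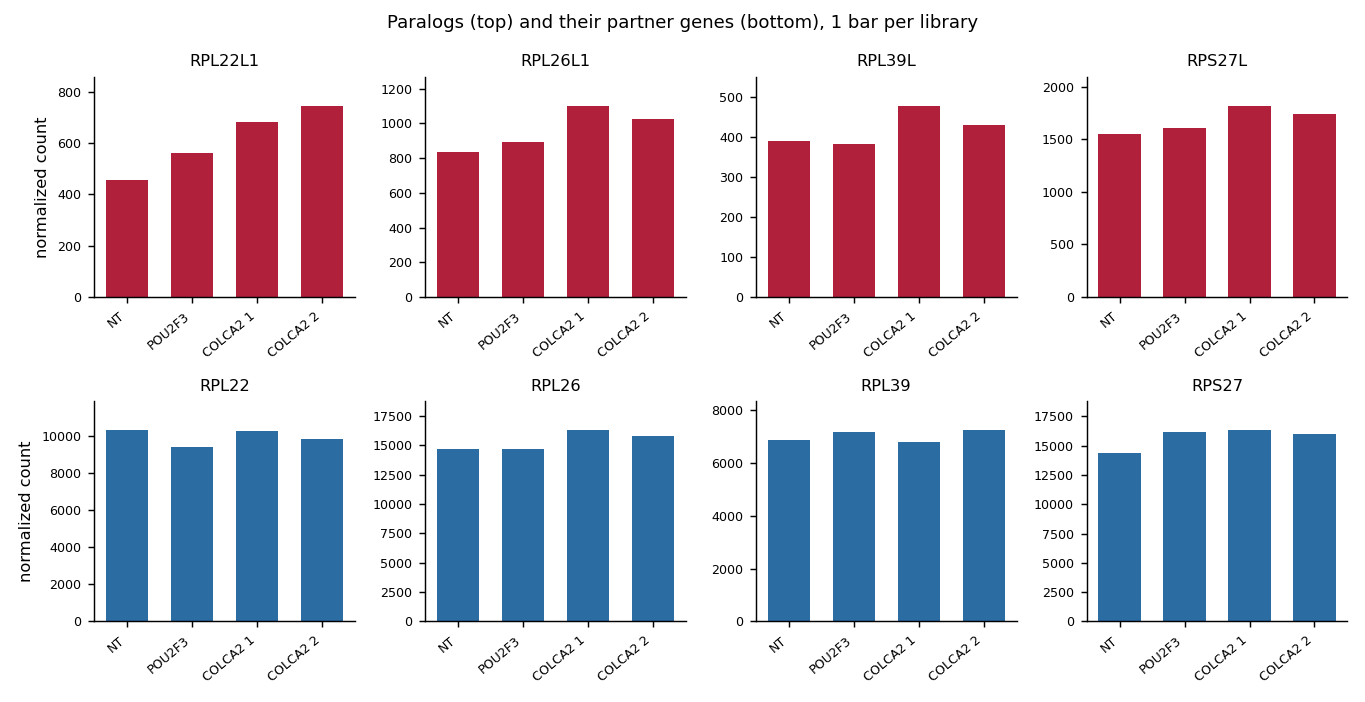
Normalized counts (vertical axes, each starting at 0) of 4 paralogs (upper row) and their canonical partners (lower row), with 1 bar per library and no error bars. RPL22L1 is higher in all 3 targeted libraries than in the non-targeting one (NT), while RPL22 stays between 9391 and 10289.

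The stalk proteins recruit translation factors to the large subunit, with RPLP0 as base and RPLP1 and RPLP2 as its arms. RPLP1 (chr15:69452784-69456194, plus strand) stood at 17154 normalized counts in the non-targeting library, 19554 with the POU2F3 guide, and 20193 and 19465 with the COLCA2 guides. This was the largest log2 ratio of a canonical gene with the POU2F3 guide, 0.19, and it was 0.21 ± 0.037 (SD, n = 2) with the COLCA2 guides. edgeR's quasi-likelihood test with Benjamini-Hochberg adjustment did not call RPLP1 with the COLCA2 guides (adjusted p = 0.119) or the POU2F3 guide (adjusted p = 0.221). RPLP2 did not follow RPLP1: it stood at 12761 in the non-targeting library, 11702 with the POU2F3 guide, and 13056 and 13295 with the COLCA2 guides. RPLP0 stood at 44810, 45230, 47034 and 46086 in that order, all 4 libraries within a narrow range.

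RPL5 and RPL11 form, with 5S ribosomal RNA, the particle that binds MDM2 when ribosome assembly is disturbed. RPL5 stood at 19141 normalized counts in the non-targeting library, 17767 with the POU2F3 guide, and 19133 and 18653 with the COLCA2 guides. RPL11 stood at 18287, 19228, 21235 and 20367 in that order, so all 3 targeted libraries were above the control for RPL11 and none was for RPL5. The log2 ratios with the POU2F3 guide were -0.11 for RPL5 and 0.072 for RPL11.

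Among the other large-subunit genes, RPL35 (chr9:124857880-124861981, minus strand), a protein at the exit of the nascent peptide tunnel, had the lowest log2 ratio with the POU2F3 guide. It stood at 17317 normalized counts in the non-targeting library, 14465 with the POU2F3 guide, and 18020 and 16160 with the COLCA2 guides. The POU2F3 ratio of -0.26 was just inside 1.2-fold and passed it with equal totals per library. In edgeR's quasi-likelihood test with Benjamini-Hochberg adjustment it was not called (adjusted p = 0.204), and the COLCA2 libraries lay on either side of the control. RPL24, which bridges the subunits, stood at 13298, 12794, 15116 and 14357, and RPL38, another surface protein of the large subunit, at 7727, 7241, 8132 and 8184, in the order non-targeting, POU2F3, COLCA2 guide 1 and guide 2. In both, the POU2F3 library was below and the COLCA2 libraries were above the control, and they were among the 5 genes furthest below the COLCA2 libraries when ranked by the smaller of the differences from guides 1 and 2. RPL9 was below the control in all 3 targeted libraries, at 9124, 8447, 8839 and 8878. RPL10, which completes the peptidyl transferase centre, and RPL3, which lies beside it, were the only 2 of the 81 genes whose POU2F3 level was above both COLCA2 libraries. RPL10 stood at 18970, 19981, 19833 and 18958, and RPL3 at 42759, 43186, 42954 and 41933.

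RPS2, RPSA, RPS21 and RPS15 had the lowest log2 ratios of the small subunit with the POU2F3 guide. RPS2 (chr16:1962052-1964860, minus strand), which lines the entry of the messenger RNA channel, stood at 32141 normalized counts in the non-targeting library, 27131 with the POU2F3 guide, and 30097 and 28269 with the COLCA2 guides. All 3 targeted libraries were below the control. Its log2 ratios were -0.24 with the POU2F3 guide and -0.14 ± 0.064 (SD, n = 2) with the COLCA2 guides, and edgeR's quasi-likelihood test with Benjamini-Hochberg adjustment gave adjusted p = 0.173 and 0.292. With equal totals per library RPS2 passed 1.2-fold with the POU2F3 guide. RPS2 pseudogenes took 7.54% of the reads of gene and pseudogenes together, and with them added the POU2F3 ratio was -0.23.

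RPSA, the precursor of the laminin receptor, stood at 32143 normalized counts in the non-targeting library, 28316 with the POU2F3 guide, and 33029 and 31534 with the COLCA2 guides. RPS21, its neighbour on the small subunit, stood at 6697, 5855, 6867 and 6378 in that order. For both genes the COLCA2 libraries lay on either side of the control and the POU2F3 library below all others. RPS15, which helps export the small subunit from the nucleus, stood at 17820, 15743, 17464 and 16806, and RPS24 at 15082, 14272, 14931 and 14888, with all 3 targeted libraries below the control.

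RPS27A, which is made as a fusion with ubiquitin (chr2:55231903-55235853, plus strand), had the highest canonical log2 ratio with the COLCA2 guides. It stood at 11683 normalized counts in the non-targeting library, 11984 with the POU2F3 guide, and 13567 and 13742 with the COLCA2 guides. The log2 ratio of 0.22 ± 0.013 (SD, n = 2) with the COLCA2 guides was larger than their spread and missed the threshold in edgeR's quasi-likelihood test with Benjamini-Hochberg adjustment (adjusted p = 0.0961). The POU2F3 library lay beside the control, and below both COLCA2 libraries, with log2 differences of -0.18 and -0.20. RPS13 (chr11:17074389-17077787, minus strand) stood at 8023, 8760, 9162 and 9220 in that order, with all 3 targeted libraries above the control, log2 ratios of 0.13 with the POU2F3 guide and 0.20 ± 0.0065 (SD, n = 2) with the COLCA2 guides. RPS27, a zinc-finger protein, had a log2 ratio of 0.17 in the POU2F3 library and with the COLCA2 guides (± 0.021, SD, n = 2).

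Among the small-subunit genes named for roles of their own, RPSA and RPS27A are described above, with some of the larger differences. The others stayed within 1.2-fold of the control on the deposited scale. RPS6, the substrate of the S6 kinases, stood at 27671 normalized counts in the non-targeting library, 29633 with the POU2F3 guide, and 31037 and 30538 with the COLCA2 guides, the control lowest. RPS19, the gene most often mutated in Diamond-Blackfan anaemia, stood at 16679, 16753, 17803 and 17040, and RPS14, the haploinsufficient gene of the 5q deletion syndrome, at 16321, 15698, 18400 and 17408. RPS4X, encoded on the X chromosome, stood at 31295, 32205, 33017 and 31343. Log2 ratios with the POU2F3 guide were 0.099 for RPS6, 0.0064 for RPS19, -0.056 for RPS14 and 0.041 for RPS4X. The means of both COLCA2 guides were 0.15 for RPS6, 0.0625 for RPS19, 0.13 for RPS14 and 0.040 for RPS4X.

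Some levels rest on how reads were assigned to copies. Pseudogene symbols of the set numbered 1130, for 76 of its genes, and their reads equalled 1.08% of the set's reads in the non-targeting library and 1.03 to 1.10% in the others. RPL23A, named here because its pseudogenes took 48.0% of the reads of gene and pseudogenes together, stood at 8318 normalized counts in the non-targeting library beside 7595 on its pseudogenes. With both added, its log2 ratios were 0.087 and 0.10 with the COLCA2 guides and -0.00098 with the POU2F3 guide. RPS28 pseudogenes took 15.2%, and RPS28 had ratios of 0.13, 0.097 and 0.0052 with them added. RPS9 had 5 rows in the data and RPS18 had 4, which were summed.

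Some genes of the ribosome fall outside the naming rule. Among them are FAU, which encodes a 40S protein fused to a ubiquitin-like domain, RACK1 of the 40S, and the paralogs RPL36AL and RPL7L1. None of these 4 genes was called against the control in either comparison. Against the COLCA2 libraries, 1 of them, RPL36AL, was lower in the POU2F3 library. RPL36AL was at 3506 normalized counts in the non-targeting library, 3129 with the POU2F3 guide, and 4106 and 4015 with the COLCA2 guides, and FAU at 5339, 5351, 6145 and 5987. RPL7L1, a nucleolar relative of RPL7, stood at 7144, 7358, 7344 and 7640. The same background percentages as above apply to these and the following lists, which were chosen with earlier results of these data known, and all calls in them are at 1.2-fold.

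A list of 17 other genes, taken as having TOP messenger RNAs, holds translation factors and some other genes, such as TPT1 and HNRNPA1. Start sites were described for the ribosomal protein genes only, so a TOP start is assumed for this list. Of the 17 genes, 2 rose and 0 fell with the POU2F3 guide (median log2 ratio 0.085). With both COLCA2 guides 2 rose and 0 fell (median 0.099). TPT1, which encodes the growth-linked protein TCTP, rose in both comparisons: it stood at 13909 normalized counts in the non-targeting library, 19503 with the POU2F3 guide, and 17944 and 18837 with the COLCA2 guides. EIF4A2, a helicase of translation initiation, stood at 7343, 8526, 8248 and 8961 in that order. It was called in neither comparison, so it is not among the genes counted as rising. HNRNPA1, an RNA-binding protein, was lower than the control in all 3 targeted libraries, at 35240, 30744, 29909 and 30662, and EEF2, the elongation factor, was level at 71951, 71754, 71937 and 69463.

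Ribosome biogenesis factors assemble the subunits in the nucleolus. Of 56 such genes, 2 rose and 15 fell with the POU2F3 guide (median log2 ratio -0.17), while 6 rose and 4 fell with both COLCA2 guides (median 0.022). In the POU2F3 library against the COLCA2 libraries 1 was higher and 14 were lower (median -0.20). IMP4, a protein of the small-subunit processome, fell in every targeted library: it stood at 4881 normalized counts in the non-targeting library, 1917 with the POU2F3 guide, and 2710 and 2485 with the COLCA2 guides. WDR12, a large-subunit assembly factor, was at 1347, 1058, 1057 and 1083 in that order. SBDS, which readies the large subunit for translation, rose, at 1023, 1323, 1452 and 1564, and NMD3, the export adaptor of that subunit, stood at 994.1, 1179, 1361 and 1235. Over all genes, 22% were lower and 25.3% higher with the POU2F3 guide. The share of these factors that fell was near that background, and the share that rose was below it. Against the COLCA2 libraries 8.82% of all genes were lower in the POU2F3 library and 9.2% higher. There the share of these factors that was lower was above the background. The cause was not tested.

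RNA polymerase I transcribes the large ribosomal RNA. Of its 14 subunits and factors 0 rose and 5 fell with the POU2F3 guide (median -0.14), and 1 rose and 3 fell with the COLCA2 guides (median -0.065). ZNRD1, a small subunit of the enzyme, stood at 342.8 normalized counts in the non-targeting library, 226.6 with the POU2F3 guide, and 241.6 and 227.0 with the COLCA2 guides. TAF1A, of its promoter factor, stood at 91.67, 61.27, 74.65 and 50.57 in that order, and the largest subunit, POLR1A, at 2219, 2458, 2508 and 2805. TWISTNB, another subunit, stood at 700.9, 799.1, 890.6 and 974.9.

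Of 18 regulators of ribosomal protein synthesis, such as MYC partners and the mTOR pathway, 1 rose and 7 fell with the POU2F3 guide (median -0.18), and 0 rose and 5 fell with the COLCA2 guides (median -0.15). TSC1, a brake on mTOR, stood at 2564 normalized counts in the non-targeting library, 1091 with the POU2F3 guide, and 1522 and 1163 with the COLCA2 guides. TBPL1, a relative of the TATA-binding protein, stood at 707.6, 444.9, 429.2 and 472.8 in that order, and MAX, the partner of MYC, at 915.8, 1019, 1033 and 1063. MYCN was low, at 53.48, 90.65, 57.02 and 90.56. MYC, an activator of ribosomal protein synthesis that was named after its values were seen, fell in all 3 targeted libraries, at 8152, 6148, 5952 and 5188.

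Genes of the nucleolar stress response had the highest medians of the lists. Of 12, 6 rose and 0 fell with the POU2F3 guide (median 0.38), and 7 rose and 1 fell with the COLCA2 guides (median 0.61). GDF15, a stress-induced secreted factor, stood at 82.12 normalized counts in the non-targeting library, 683.2 with the POU2F3 guide, and 1180 and 1280 with the COLCA2 guides. CDKN1A, the p21 inhibitor of the cell cycle, stood at 1166, 4083, 4718 and 5184 in that order. MDM4, a relative of MDM2, fell with the COLCA2 guides: it stood at 2753 in the non-targeting library, 2688 with the POU2F3 guide, and 2277 and 2047 with the COLCA2 guides. Of 14 host genes of small nucleolar RNAs, SNHG32 was the 1 analysed here, and it rose, at 2974, 3845, 4138 and 3980.

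Proteins of the mitochondrial ribosome, a separate machine encoded by other genes, had medians on the same sides of 0 as the cytoplasmic set on the deposited scale. With equal totals per library the COLCA2 median of the cytoplasmic set was -0.0074, so its side of 0 rests on the scaling. Of 77 genes, 1 rose and 9 fell with the POU2F3 guide (median -0.089), and 8 rose and 1 fell with the COLCA2 guides (median 0.086). MRPL33 stood at 778.3 normalized counts in the non-targeting library, 1027 with the POU2F3 guide, and 1189 and 1222 with the COLCA2 guides, and MRPS5 at 1684, 1913, 2064 and 1993. MRPL22 stood at 1601, 1044, 1294 and 1236, and MRPL11 at 1840, 1478, 1648 and 1517, both lower than the control in all 3 targeted libraries. The POU2F3 library against the COLCA2 libraries had 0 of the 77 higher and 8 lower (median -0.20), on the same side as the median of -0.10 for the cytoplasmic set.

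**Figure D4:**
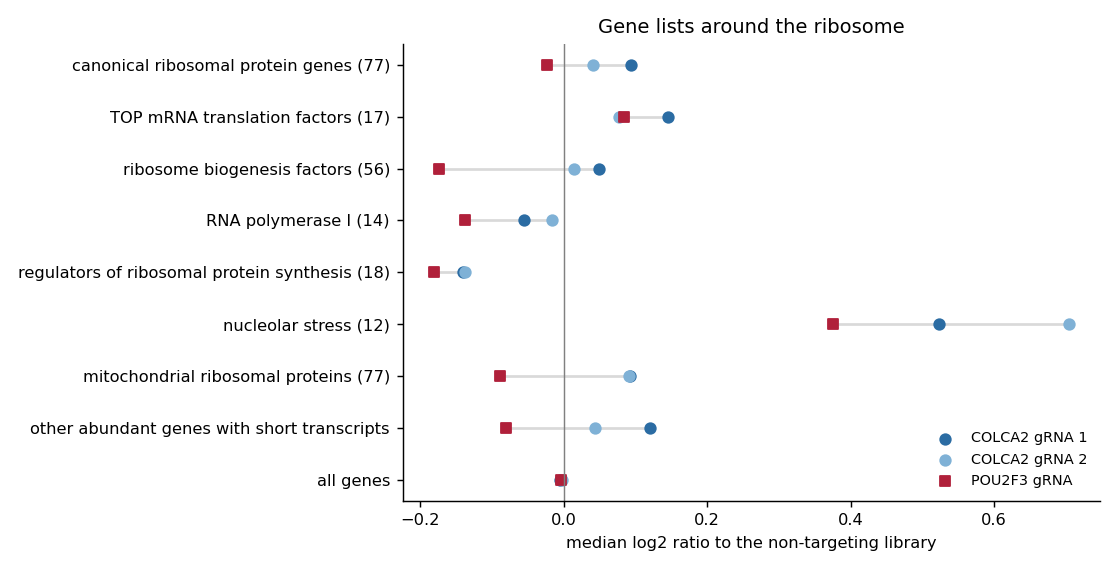
Median log2 ratio to the non-targeting library (horizontal axis, no unit) of each gene list (vertical axis, number of genes in brackets) in the 3 targeted libraries, without error bars. The canonical ribosomal protein genes lie between -0.024 and 0.094, the nucleolar stress list between 0.38 and 0.70, and the other abundant genes with short transcripts are the 245 genes described above.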

How the data were processed

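Poly(A) RNA-seq libraries were made from NCI-H1048 cells with NEBNext kits, per the labels' protocols, and the submitters' processing notes name Salmon, DESeq2 and hg38; their versions and settings are not given in the sources used here. The deposited values are a signal, gene counts normalized by the authors, per the file names and values by 1 factor per library. Multiplied by a factor found from the steps between low values (0.850 to 1.19), 100% of values came out whole within 0.01 read, in every library; totals ran from 21587741 to 29632382 reads. Rows of a symbol were summed, genes with a mean of at least 20 kept, and log2 ratios taken with a pseudocount of 1; this understates changes of low genes. The main comparisons carry no test, since 2 of the 3 groups hold 1 library. edgeR 4.0.16 on recovered reads, checked on simulated data, called 1263 genes higher and 595 lower with the POU2F3 guide and 1709 and 1122 with the COLCA2 guides, and 16 and 35 in the POU2F3 library against the COLCA2 libraries; p-values measure the spread between these libraries only. DESeq2 1.42.0 gave size factors as an alternative scaling. Lengths came from GENCODE 29 (RPL7A and RPS25 had none by identifier), and starts from RefSeq. Some genes are not reported here.

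The members and lists were chosen with earlier results of these data known. Genes were named by a rule: the targets, paralogs with partners, stalk and 5S genes, 6 genes with separate roles, the 5 largest rises and falls per comparison, the 5 highest and lowest per kilobase, and 2 in each direction per list. RPL23A, RPL36A, RPL36AL and RACK1 were added after their values were seen, as was the length used per kilobase.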

Additional observations from a re-analysis of the deposited data

How the results depend on the processing

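Over 14 results and 135 alternatives, 108 values kept their side or stayed within the spread and 27 moved. No paired analysis was possible because only the COLCA2 group has more than 1 library. With equal totals per library the COLCA2 median of ribosomal protein genes was -0.0074; 0 genes were at least 1.2-fold higher and 2 lower with the POU2F3 guide, 1 was higher with the COLCA2 guides, and 0 were lower between POU2F3 and COLCA2 libraries. With no minimum mean, 2 were higher and 1 lower with the POU2F3 guide, RPL3L and RPL10L being the additions. At 1.5-fold, 0 were called with POU2F3, with COLCA2 or between them, and at 2-fold likewise 0. By edgeR's adjusted p, 0 were higher with the POU2F3 guide, 1 with the COLCA2 guides, and 0 were lower between the targeted groups (unadjusted counts are given above). Leaving out each COLCA2 guide in turn gave 1 to 4 genes lower in the POU2F3 library; without COLCA2 guide 2 these were RPL22L1, RPL26L1, RPL35 and RPL39L. The same gave 2 to 3 genes higher with COLCA2 guides, medians of 0.046 to 0.096 for COLCA2 and -0.13 to -0.074 for POU2F3 against COLCA2, and a COLCA2 share of 5.597 to 5.784%. The median of 40S minus 60S genes with the COLCA2 guides was 0.035, and 0.032 without paralogs and 0.015 to 0.020 leaving out each guide; with the POU2F3 guide it was 0.030, and 0.026 with pseudogene reads added. Shares of reads without mitochondrial genes were 5.95% (non-targeting), 5.72% (POU2F3) and 5.94% (COLCA2), and without the 10 most abundant other genes 5.96, 5.74 and 5.97%, larger by construction. The cause of the other shifts was not tested. The counting error of a canonical gene's POU2F3 log2 ratio was at most 0.026, while 1 library per group leaves the spread between cultures unmeasured.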
